A study of Sus scrofa with 6 samples.

Results

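The probes for Toll-like receptors and for the NF-kB factor and its feedback inhibitors were taken from 1-colour Agilent pig arrays of renal cortex. A probe belonged to the set where the array's own gene name was TLR2, TLR3, TLR4, TLR7, TLR8, TLR9, MYD88, NFKBIA, NFKB1 or TNFAIP3. This gave 16 of the 43603 probes, for 9 of the 10 genes, and no probe carried the name TNFAIP3. The arrays compared 3 control with 3 ischemia kidneys from 3-month-old Large White pigs, each kidney from a different animal and on 1 array. Control kidneys were sampled and frozen directly after removal. Ischemia kidneys stayed clamped for 60 min at 37 °C, were flushed with cold University of Wisconsin preservation solution and were kept for 24 h at 4 °C before sampling. Every ischemia kidney had warm ischemia, flushing and cold storage and no control had any of these, so their parts cannot be told apart. No kidney was reperfused, so blood did not return to the tissue. Of the cortex genes sought, SLC34A1 and AQP1 of the proximal tubule, SLC12A1 of the thick ascending limb, AQP2 of the collecting duct and PODXL of podocytes each had a probe well above background on all 6 arrays.

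Toll-like receptors recognise molecules of microbes and of damaged cells. TLR2 and TLR4 do so at the cell surface, and TLR3, TLR7, TLR8 and TLR9 bind nucleic acids in endosomes. All but TLR3 signal through the adaptor MYD88 to the kinases that free NF-kB from its inhibitor. NFKB1 encodes the precursor of the p50 subunit of NF-kB. NFKBIA encodes the inhibitor IkB-alpha and is itself an NF-kB target, so its transcript is a common readout of the feedback. In the kidney these receptors are found on tubular cells as well as on leukocytes, and whole cortex does not separate these sources. Fewer cells of a type and less RNA per cell cannot be told apart here.

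The probes the results turn on are 60 bases long and are shown 5′ to 3′ as the scanner files give them, so that the part of each transcript that was measured can be traced. Capitals mark the 48 bases that this TLR3 probe shares with the other TLR3 probe, A_72_P303279, and no capitals are used elsewhere. The probe starts at base 2156 of the TLR2 transcript, 2870 of TLR3, 749, 2000 and 2208 of TLR4, 2657 of TLR9, 669 of MYD88, 865 of NFKBIA and 2435 of NFKB1. No genome position is given, since the files list none.
TLR2 A_72_P088356: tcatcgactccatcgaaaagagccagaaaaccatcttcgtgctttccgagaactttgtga
TLR3 A_72_P471206: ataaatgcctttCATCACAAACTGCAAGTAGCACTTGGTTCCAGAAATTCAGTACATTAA
TLR4 A_72_P419074: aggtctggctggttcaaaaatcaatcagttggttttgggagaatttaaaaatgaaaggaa
TLR4 A_72_P444577: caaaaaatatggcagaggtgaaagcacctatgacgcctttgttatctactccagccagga
TLR4 A_72_P547391: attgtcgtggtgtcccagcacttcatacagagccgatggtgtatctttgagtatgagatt
TLR9 A_72_P232812: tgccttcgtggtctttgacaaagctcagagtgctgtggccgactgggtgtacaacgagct
MYD88 A_72_P088111: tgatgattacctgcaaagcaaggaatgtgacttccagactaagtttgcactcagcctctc
NFKBIA A_72_P165846: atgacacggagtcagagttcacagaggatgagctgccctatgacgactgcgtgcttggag
NFKB1 A_72_P146316: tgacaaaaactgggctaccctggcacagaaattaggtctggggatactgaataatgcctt

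Levels are log2 signals set against the array's own 75th percentile, so 0 is the signal of a probe at that percentile. Differences are ischemia minus control on this scale, with the standard error (SE) and the 95% interval from limma fitted over all probes tested, n = 3 against 3. Testing needed a spot well above background on 3 or more arrays. This left 14 of the 16 probes, for 7 genes, and 25017 probes in all. No spot was saturated, and 52.56% to 61.36% of spots on an array were well above background. The logarithm of the 75th percentile was 8.713 on the array of ischemia 1 and 7.951 to 8.2 on the other arrays. Each of the 3 slides held 1 control and 1 ischemia array: control 1 with ischemia 2, control 2 with ischemia 3, and control 3 with ischemia 1. Controls always lay at the fourth position of the slide and ischemia samples at the third, so group and position on the slide cannot be told apart.

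No receptor, adaptor, factor or inhibitor probe of the set passed an adjusted p of 0.05 in limma, and none had an unadjusted p under 0.05. Over all probes tested, 0.004% passed the adjusted threshold, and 6.29% had an unadjusted p under 0.05. Of the 14 probes, 5 measured higher and 9 lower in ischemia, against 44.3% higher and 55.7% lower over all probes. Their median difference was -0.17, against -0.04 over all probes tested. The groups did not overlap for 1 of the 14 probes, against 10.9% of all probes. Scaling moved the signs: with each array's median in place of its 75th percentile, 7 of the 14 measured higher, the set's median was -0.01 and that of all probes 0.11. Both scalings subtract a single value from each array, so the set's median minus that of all probes was bound to be -0.12 under both. It was -0.09 with quantile normalization alone and -0.05 with another background correction followed by quantile normalization. In the authors' deposited values, which hold 9 of the probes, it was -0.05, and without ischemia 1 it was 0.10. Of all probes with an unadjusted p under 0.05, 47.5% were higher in ischemia in the main fit, 66.4% with median scaling, 58.2% with quantile normalization, 57.8% with another background correction (normexp) followed by quantile normalization and 91.0% in the authors' deposited values.

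**Figure D1:**
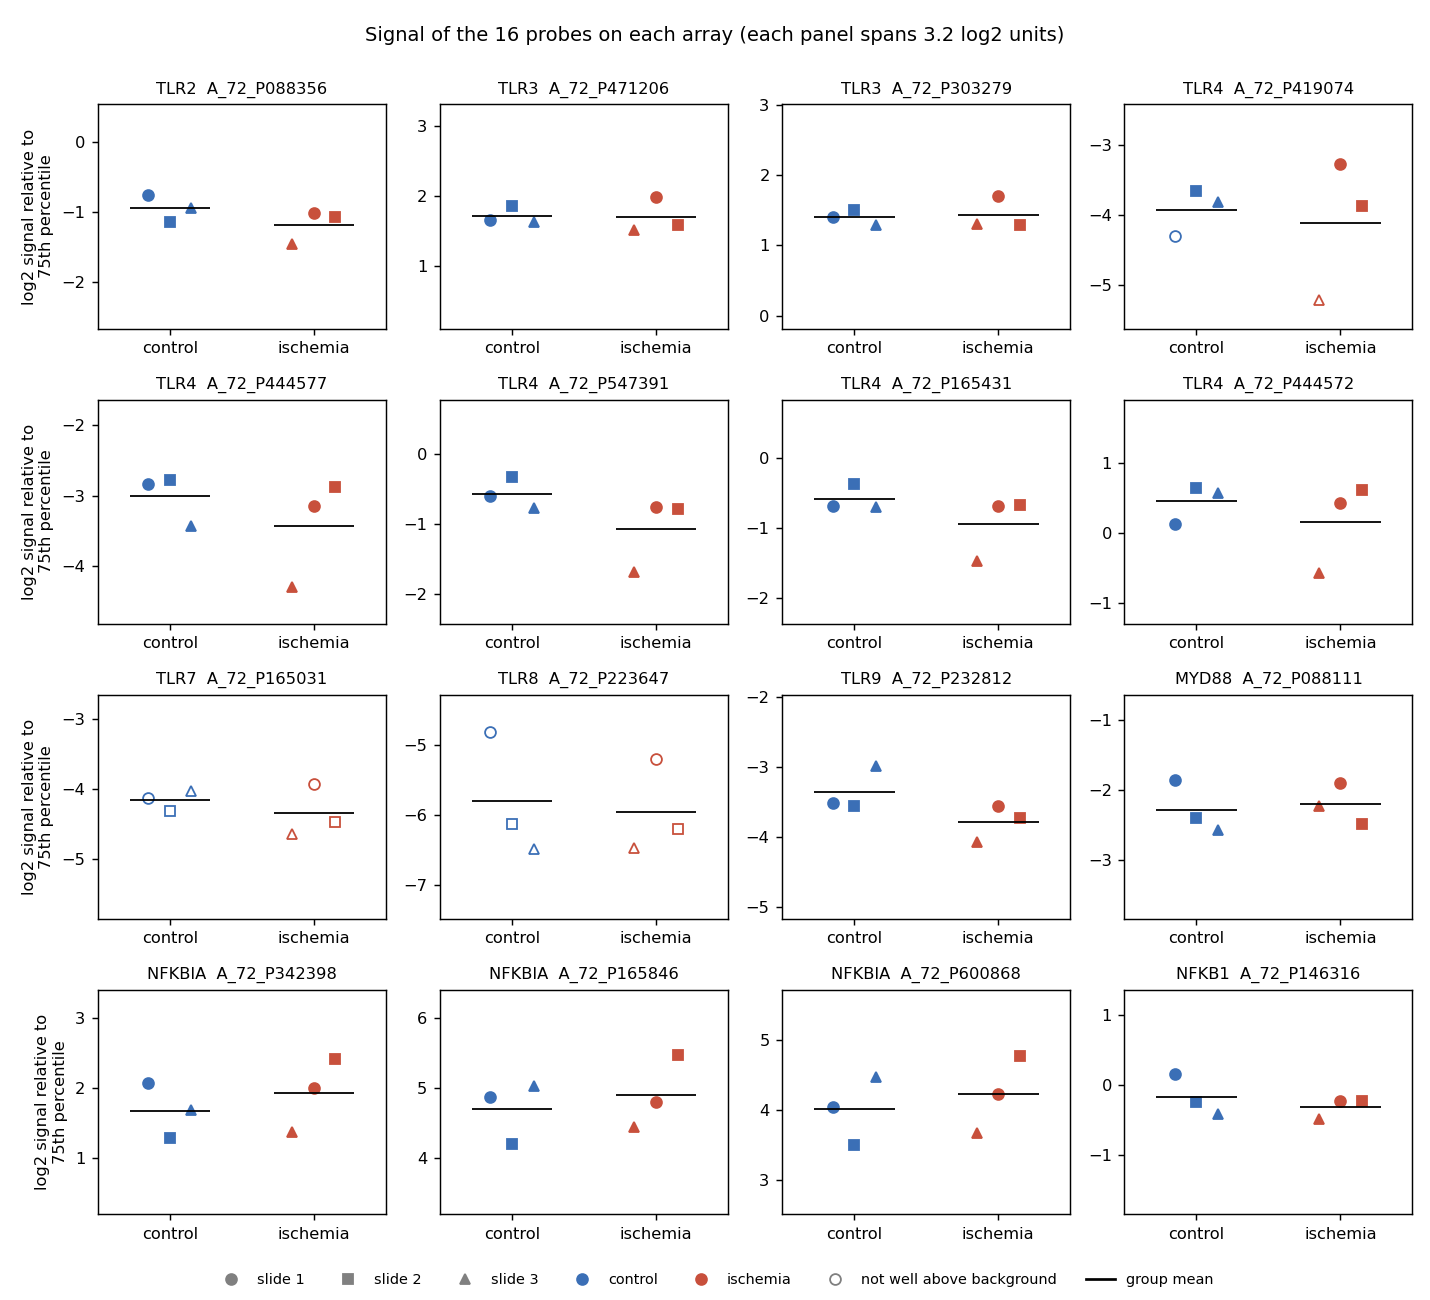
Log2 signal relative to the array's 75th percentile for each of the 16 probes on each of the 6 arrays, with the group mean as a line, the slide as the symbol and open symbols where the spot was not well above background. TLR7 and TLR8 have open symbols on all 6 arrays, and the control and ischemia points overlap for every tested probe except TLR9.

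TLR2, the surface receptor for bacterial lipoproteins, was measured at -0.76, -1.14 and -0.95 in controls 1 to 3 and at -1.46, -1.01 and -1.07 in ischemia 1 to 3. Ischemia 1 was the lowest array, and the other ischemia values lay within the control range. The difference was -0.23 ± 0.22 (SE; 95% interval -0.74 to 0.28; limma adjusted p = 0.938). Before scaling, the TLR2 signal of ischemia 1 was 153, the highest of the 6 arrays, whose range was 122 to 153. The TLR2 difference was -0.13 without control 1 and -0.09 without ischemia 1, and in the authors' deposited values it had the other sign, at 0.09.

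TLR4, the surface receptor for lipopolysaccharide and for several products of injured tissue, had 5 probes along its transcript. The probe A_72_P547391 read -0.61, -0.33 and -0.78 in controls 1 to 3 and -1.69, -0.76 and -0.79 in ischemia 1 to 3. Ischemia 1 stood below the rest, while the other ischemia arrays lay beside control 3. The difference of -0.51 ± 0.30 (SE; 95% interval -1.22 to 0.20) was the largest in size among the 14 probes, a ratio of 0.704 with an interval of 0.431 to 1.15. Its adjusted p was 0.894 in limma, and 0.574 with slide as a block.

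The other TLR4 probes showed the same low array. A_72_P444577 read -2.84, -2.78 and -3.43 in controls 1 to 3 against -4.30, -3.15 and -2.88 in ischemia 1 to 3. The difference was -0.43 ± 0.40 (SE; 95% interval -1.36 to 0.51). The dimmest probe, A_72_P419074, was well above background on only 2 arrays of each group, and not on control 1 or ischemia 1. It read -4.31, -3.66 and -3.82 against -5.21, -3.28 and -3.87, a difference of -0.19 ± 0.48 (SE). Toward the 3′ end, A_72_P165431, which starts at base 2492, differed by -0.35 ± 0.27 (SE), and A_72_P444572, which starts at base 3229 of another transcript model, by -0.29 ± 0.34 (SE).

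All 5 TLR4 probes were lowest on ischemia 1. This held with median scaling, with quantile normalization alone and with normexp followed by quantile normalization, and for both TLR4 probes that the authors' deposited values hold. Before scaling, ischemia 1 was not the lowest array for A_72_P444572, at 284 against 283 in control 1. For A_72_P165431 the unscaled signal was 151 in ischemia 1 and 154 in ischemia 2. All 5 differences were below 0 in the main fit, and all but that of A_72_P419074 (0.06 with normexp and quantile normalization) stayed below 0 under the other scalings in which they had a value. Without ischemia 1, the difference of A_72_P547391 was -0.20, and those of the 5 probes ran from -0.20 to 0.35. Profiles of the 5 probes, each centred on its mean, differed from each other by a root mean square of 0.10 to 0.43 over the 6 arrays. TLR4 probes share a gene and are not replicates of the condition.

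**Figure D2:**
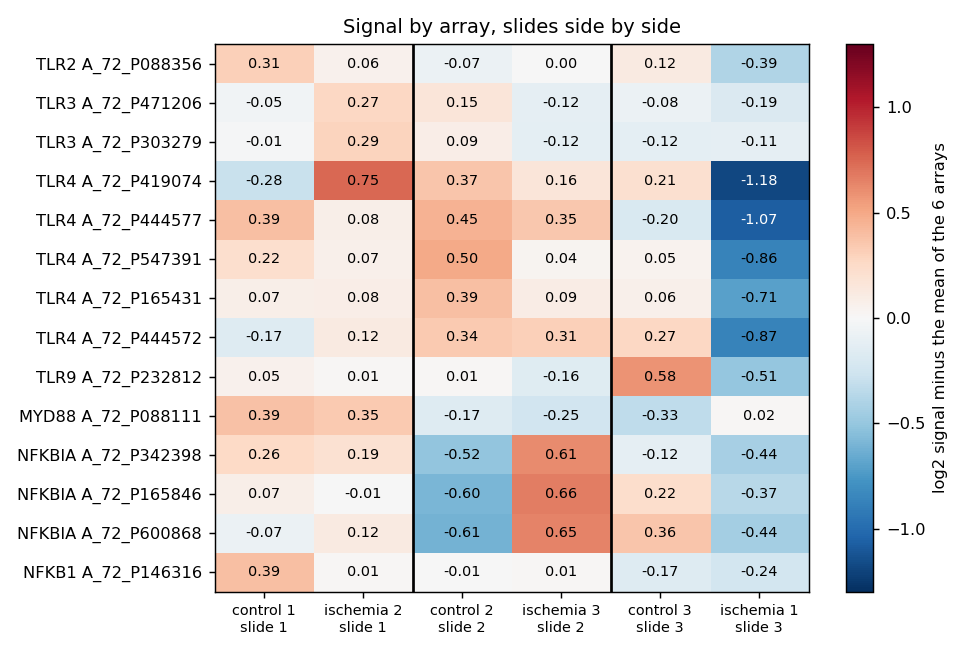
Log2 signal minus the probe's mean over the 6 arrays for the 14 tested probes, with the arrays of each slide side by side. The ischemia 1 column holds the lowest value of all 5 TLR4 probes, from -1.18 to -0.71, and on slide 2 all 3 NFKBIA probes are low in control 2 and high in ischemia 3.

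Among the endosomal receptors, TLR3, which binds double-stranded RNA, had overlapping values in the groups. A_72_P471206 read 1.66, 1.86 and 1.63 in controls 1 to 3 and 1.52, 1.98 and 1.59 in ischemia 1 to 3. The groups overlapped and ischemia held both the highest and the lowest array. Its difference was -0.02 ± 0.21 (SE; 95% interval -0.51 to 0.47; adjusted p = 0.993), and it was 0.13 with median scaling and 0.27 in the deposited values. The other probe, which shares the bases in capitals above, differed by 0.03 ± 0.20 (SE; 95% interval -0.45 to 0.51). The interval reaches changes of about 0.5 log2 either way, so smaller changes of TLR3 were not resolved by 3 kidneys a group.

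TLR9, the receptor for unmethylated CpG DNA, was the 1 probe of the set whose groups did not overlap. It read -3.51, -3.55 and -2.98 in controls 1 to 3 and -4.07, -3.55 and -3.72 in ischemia 1 to 3. Every ischemia value lay below every control value, but control 2 and ischemia 2 differed by less than the second decimal. All ischemia values lay below all control values for 5.0% of all probes. The difference was -0.44 ± 0.25 (SE; 95% interval -1.02 to 0.14; unadjusted p = 0.12, adjusted p = 0.886 in limma). This was the smallest p of the set. Within slides the difference was -0.05, -0.17 and -1.09, and in the authors' deposited values it was 0.02.

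TLR7 and TLR8, receptors for single-stranded RNA carried mainly by myeloid and plasmacytoid cells, were not well above background on any of the 6 arrays. The TLR7 probe ranged from -4.64 to -3.93 and the TLR8 probe from -6.48 to -4.81. No fold is given for them, and these arrays give only an upper bound on their signal.

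MYD88, the adaptor of all these receptors but TLR3, read -1.86, -2.41 and -2.58 in controls 1 to 3 and -2.23, -1.90 and -2.49 in ischemia 1 to 3. The ischemia values lay inside the control range. The difference was 0.08 ± 0.27 (SE; 95% interval -0.55 to 0.71; adjusted p = 0.972). NFKB1 read 0.15, -0.25 and -0.41 in controls against -0.48, -0.23 and -0.23 in ischemia 1 to 3. Control 1 was the highest array and ischemia 1 the lowest, with the others between. The NFKB1 difference was -0.14 ± 0.22 (SE; 95% interval -0.66 to 0.38; adjusted p = 0.951), and it was 0.01 with median scaling and 0.09 in the deposited values.

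NFKBIA, the IkB-alpha gene, was measured by 3 probes, all with a mean difference above 0 and none separating the groups. A_72_P165846 read 4.88, 4.21 and 5.03 in controls 1 to 3 and 4.44, 4.80 and 5.47 in ischemia 1 to 3. Control 2 was the lowest array and ischemia 3 the highest, and the remaining arrays overlapped. The difference was 0.20 ± 0.34 (SE; 95% interval -0.60 to 1.00; adjusted p = 0.954).

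The other NFKBIA probes gave the same order at the ends. A_72_P342398, which starts at base 217, read 2.06, 1.28 and 1.68 against 1.36, 1.99 and 2.41, a difference of 0.25 ± 0.33 (SE). A_72_P600868, which starts at base 1610 of another transcript model, read 4.05, 3.51 and 4.48 against 3.68, 4.24 and 4.77, a difference of 0.21 ± 0.36 (SE). The lowest and the highest array shared slide 2. On that slide the NFKBIA difference was 1.13 to 1.26 over the 3 probes, whereas it was -0.07 to 0.19 on slide 1 and -0.81 to -0.32 on slide 3. Without control 2 the 3 NFKBIA differences were -0.05, 0.05 and -0.04 for A_72_P165846, A_72_P342398 and A_72_P600868, and without ischemia 3 they were -0.08, 0.01 and -0.06. Without either array, the difference of A_72_P342398 was thus close to 0 and those of the other NFKBIA probes had the other sign. The 3 profiles differed from each other by a root mean square of 0.10 to 0.25 over the 6 arrays. They shared the lowest and the highest kidney but not the order between: control 1 lay 0.26 above the mean on A_72_P342398 and at -0.07 on A_72_P600868, and control 3 at -0.12 and 0.36.

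**Figure D3:**
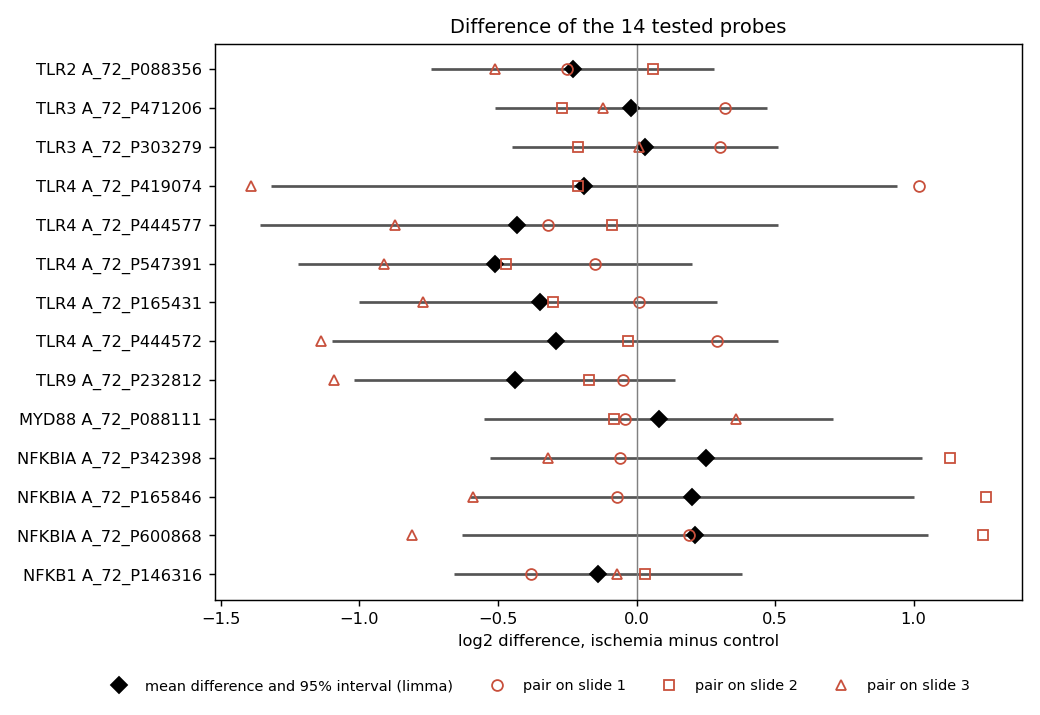
Log2 difference, ischemia minus control, of the 14 tested probes with the 95% interval from limma (black) and the difference within each slide (red). Every interval includes 0, and the NFKBIA probes lie above 1 on slide 2 alone.

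Over the 14 probes, ischemia 1 was the lowest array for 9, against 16.6% of all probes tested. Of these 9 probes, 5 measure the same gene, TLR4. The count was 7 of 14 with median scaling, 9 with quantile normalization alone, 8 with normexp and quantile normalization and 3 of the 9 probes held by the deposited values. The median difference within slides was -0.04, -0.09 and -0.68 for slides 1, 2 and 3, against -0.01, -0.10 and 0.01 over all probes. Without ischemia 1 the set's median was 0.07, and 9 of 14 probes measured higher. Low values of the set thus lay mostly on 1 ischemia kidney. This array also had the brightest 75th percentile. Its TLR4 probes were the lowest under each scaling tried, but A_72_P444572 was not the lowest before scaling. The part of the animal, of the array and of the scaling in these low values was not tested.

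The rest of the pathway was read from lists of 88 genes, of which 54 had a probe and 41 were tested with 115 probes. None passed the adjusted threshold. At an unadjusted p under 0.05 in limma, 5 probes were higher and 1 lower, against 2.99% and 3.3% of all probes. These were S100A12, a calcium-binding alarmin of neutrophils, and the NF-kB target genes IL1B, CXCL10 with 2 probes, VCAM1 and CCL2.

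Among co-receptors, none of the 7 tested genes had an unadjusted p under 0.05, and the median over 14 probes was -0.05. LY96, which encodes MD-2, the lipopolysaccharide-binding partner of TLR4, read 2.57, 2.96 and 2.77 in controls 1 to 3 and 1.85, 2.87 and 1.62 in ischemia 1 to 3 on its probe A_72_P609999. Ischemia 1 and 3 lay below every control, and ischemia 2 lay among them. The LY96 difference was -0.65 ± 0.34 (SE; adjusted p = 0.871), and its 4 probes ran from -0.65 to -0.42. It was -1.03 without ischemia 2 and -0.41 without ischemia 3. The probes of CD14, the coreceptor that hands lipopolysaccharide to TLR4, disagreed in sign, at -0.42 ± 0.26 (SE) and 0.34 ± 0.43 (SE). The CD14 probe at -0.42 was well above background on all 6 arrays. The dimmer one at 0.34 was so on only 1 control and 2 ischemia arrays. TLR5, TLR6 and TREM1 were not well above background on any array.

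Among adaptors and kinases, 13 of 15 probes measured higher, against 44.3% of all probes. None had an unadjusted p under 0.05, and the median was 0.14. These probes cover only 10 of the 20 listed genes, with 3 probes each for IKBKB and CHUK. The kinases that phosphorylate IkB proteins led by p: IKBKB at 0.46 ± 0.26 (SE) and CHUK at 0.36 ± 0.20 (SE). Among the factors the median of 6 probes was 0.06, for 3 of the 7 listed genes. IRF3, the interferon regulator downstream of TLR3 and TLR4, was at 0.35 ± 0.27 (SE) and IRF7 at 0.18 ± 0.22 (SE). Without control 3 these were 0.15 and 0.05, and without control 1 they were 0.61 and 0.33. Among inhibitors the median of 8 probes was -0.26, against -0.04 over all probes tested. They cover only 4 of the 18 listed genes, and the other listed inhibitors had no probe under their name. TNIP1, a partner of A20, read -2.42, -3.11 and -3.18 in controls 1 to 3 and -3.60, -3.54 and -3.22 in ischemia 1 to 3. On this TNIP1 probe, A_72_P559234, all ischemia values lay below all control values, as for 5.0% of all probes. The difference was -0.55 ± 0.26 (SE; adjusted p = 0.851 in limma). It was -0.31 without control 1, -0.16 with normexp and quantile normalization and -0.09 in the deposited values. On the brighter TNIP1 probe, A_72_P230337, the groups overlapped and the difference was -0.40 ± 0.27 (SE). SOCS3, a feedback inhibitor of cytokine receptors, was at -0.36 ± 0.29 (SE), and at -0.13 without control 3 and -0.57 without control 1.

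NF-kB target genes held 4 of the 5 probes higher at an unadjusted p under 0.05 and the only lower one, over 20 probes with a median of 0.14. IL1B, the cytokine interleukin-1 beta, read -5.62, -4.85 and -4.19 in controls 1 to 3 and -3.53, -3.42 and -2.18 in ischemia 1 to 3. All ischemia arrays lay above all controls, as for 5.92% of all probes. The IL1B probe was well above background on 0 control and 3 ischemia arrays. It thus passed the filter only through the group where it was high, so its p below is a description and its place among the higher probes is no support for a change of the list. Each control was then set at the higher of its own signal and the dimmest signal well above background on that array. The IL1B ratio of ischemia to control was 2.85 on this footing. It is no lower limit, since the fitted 95% interval of the ratio was 1.65 to 7.79 and other processing gave smaller differences. The fitted difference was 1.84 ± 0.48 (SE; unadjusted p = 0.00582, adjusted p = 0.591 in limma), and it was 0.54 with normexp and quantile normalization and 0.74 in the deposited values.

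CXCL10, a chemokine induced by interferons and NF-kB, read 0.66, -0.42 and -0.13 in controls 1 to 3 and 0.69, 0.93 and 1.11 in ischemia 1 to 3 on A_72_P509208. The groups did not overlap, though control 1 lay close to ischemia 1. All ischemia values lay above all control values for 5.92% of all probes, a share that also stands beside VCAM1 below. The CXCL10 difference was 0.87 ± 0.31 (SE; adjusted p = 0.740), and 0.77 on its other probe. VCAM1, the adhesion molecule of activated endothelium, read 1.67, 1.82 and 1.90 against 2.10, 2.39 and 2.43, with no overlap and a difference of 0.51 ± 0.19 (SE; adjusted p = 0.751). Its unadjusted limma p was 0.0332, and 0.0521 with slide as a block.

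CCL2, the monocyte chemokine, measured the other way. It read 0.58, 1.41 and 1.1 in controls 1 to 3 and 0.58, 0.26 and 0.12 in ischemia 1 to 3. Control 1 and ischemia 1 lay together, and the other ischemia arrays lay below all controls. The CCL2 difference was -0.71 ± 0.27 (SE; adjusted p = 0.751), and -0.81 on its other probe, whose unadjusted limma p was 0.0505, and 0.0321 with slide as a block. TNF was at -0.08 ± 0.27 (SE) and ICAM1 at 0.29 ± 0.20 (SE), both chosen for mention after their values were seen. IL6 and IL12B were not well above background on any array.

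Among endogenous ligands of the receptors, all 52 tested probes measured higher, with a median of 0.27, but they cover only 6 genes. HSPD1 had 20 of them, from 0.16 to 0.44, and HMGB1, a nuclear protein released by dying cells, had 16, from 0.10 to 0.30, both named after their values and probe numbers were seen. S100A12 was the 1 probe with an unadjusted p under 0.05. It read -4.56, -5.95 and -3.66 in controls 1 to 3 and 2.29, 2.95 and -5.19 in ischemia 1 to 3. Ischemia 1 and 2 were far above every control, and ischemia 3 lay within the control range. The S100A12 difference was 4.74 ± 2.01 (SE; adjusted p = 0.793), it ran from 3.27 to 7.34 when single arrays were left out, and the probe was well above background on 1 control and 2 ischemia arrays.

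**Figure D4:**
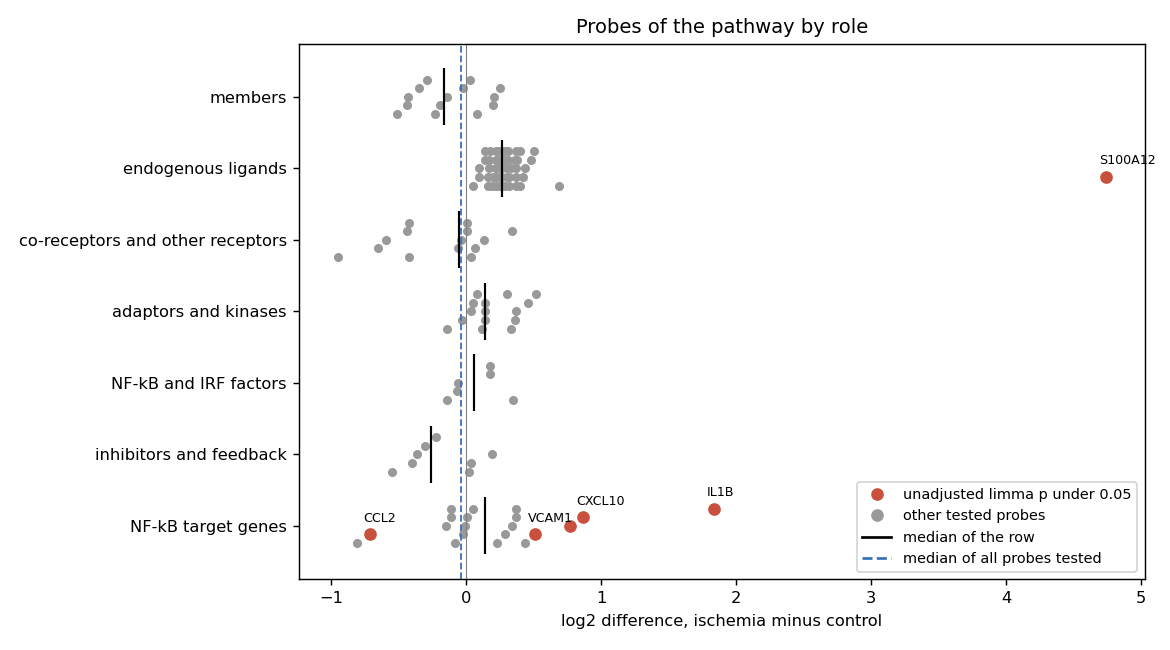
Log2 difference, ischemia minus control, of every tested probe of the 16-probe set (top row, members) and of the pathway lists by role, with probes at an unadjusted limma p under 0.05 in red, the row's median in black and the median of all probes as a dashed line. Red probes are S100A12, IL1B, CXCL10 (2 probes) and VCAM1 to the right and CCL2 to the left, and the top row has none.

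Markers of other cells of the cortex were measured beside these values. Sums are of signals relative to the 75th percentile over the tested probes of a list. Macrophage markers summed to 16.7 to 20.4 in controls and 24.8 to 33.7 in ischemia. All 14 tested probes measured higher, 8 of them at an unadjusted limma p under 0.05, against 44.3% and 2.99% of all probes. These probes cover only 5 genes, with 5 probes for VSIG4 and 4 for CD163, and 3 genes had an unadjusted p under 0.05. The genes were led by VSIG4 at 1.11 ± 0.20 (SE; adjusted p = 0.387) and CD163 at 1.42 ± 0.32 (SE; adjusted p = 0.495), receptors of resident and anti-inflammatory macrophages. The complement gene C1QA was at 0.59 ± 0.22 (SE; adjusted p = 0.751). AIF1 ran from 0.28 to 0.33 and TYROBP from 0.10 to 0.17 over their probes. Neutrophil markers summed to 2.93 to 5.18 in controls and 4.27 to 10.9 in ischemia, with MPO not well above background on any array. The higher sums lay with S100A12 on ischemia 1 and 2: 1 of the 4 tested neutrophil probes measured higher and 3 lower, with a median of -0.05, and ELANE was at -0.06 and LTF at -0.24 and -0.04. B cell markers summed to 5.42 to 5.93 against 3.7 to 5.83. T cell markers summed to 5.02 to 5.75 against 2.06 to 3.2, and the T cell receptor chain CD247 was at -1.33 ± 0.23 (SE; adjusted p = 0.383). Of the other tested T cell genes, CD3D was at 0.52, CD2 at 0.33, CD3G at 0.13, CD3E at -0.03 and CD8A at 0.00, and the list's median was -0.02. Genes of all leukocytes summed to 3.92 to 5.15 against 3.34 to 5.92, endothelial genes to 41.0 to 42.3 against 34.1 to 53.2, and cortex genes to 84.2 to 151 against 73.2 to 86.9. Of the endothelial genes TEK, an angiopoietin receptor, was at 0.71 ± 0.25 (SE; adjusted p = 0.740). The other endothelial genes did not follow TEK: CDH5 ran from 0.20 to 0.28 and PECAM1 from -0.24 to 0.09 over their probes. KDR was at 0.11, VWF at -0.03 and CLDN5 at -0.22, and the median of the endothelial list was 0.10. Of the cortex genes the phosphate transporter SLC34A1 was at -0.64 ± 0.27 (SE; adjusted p = 0.785), with its other probe at 0.35. The part of these cells in the receptor and target gene values was not tested.

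The gene most like each probe in its profile was sought among the 70 tested pathway and marker genes, for probes that ranged over 1 log2 across arrays. Likeness was the root mean square difference of centred log2 values over the 6 arrays. For TLR4 it was LCP1, an actin-bundling protein of leukocytes, on A_72_P419074 (0.35) and A_72_P444572 (0.21), BLNK, a B cell adaptor, on A_72_P547391 (0.18) and A_72_P165431 (0.11), and AQP1 on A_72_P444577 (0.31). For TLR9 it was LCP1 at 0.17. For NFKBIA it was the leukocyte genes CD53 (0.19), ITGB2 (0.26) and LCP1 (0.25) on A_72_P342398, A_72_P165846 and A_72_P600868 in turn. The LCP1 probe like NFKBIA was A_72_P070241, and the one like TLR4 and TLR9 was A_72_P659200. LCP1 on A_72_P070241 read 1.36, 1.13 and 1.61 in controls 1 to 3 and 0.77, 1.62 and 1.58 in ischemia 1 to 3. LCP1 on its probe A_72_P659200 read -3.09, -3.07 and -2.82 in controls 1 to 3 and -3.87, -2.95 and -3.17 in ischemia 1 to 3, so both LCP1 probes were lowest on the same array as TLR4, while NFKBIA was lowest on control 2. These likenesses rest on 6 arrays that share scaling and are descriptions only.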

How the data were processed

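Total RNA from renal cortex was labelled with Cy3 and hybridised to 1-colour arrays, 1 per kidney. The deposited scanner files hold spot intensity, background-subtracted and detrended within each array by Agilent Feature Extraction 10.10.1.1, per the file headers (version 11.5.1.1, per the submitters' processing notes, which also list limma and R 2.15.2). The deposited value table of the authors is taken as log2, since it follows the logarithm of the spot signal. Its column medians were 5.914 to 5.991, its normalization and gene centring are not given in the sources used here, and it served only as an alternative.

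Control spots and outlier spots were left out, spots of a probe were averaged, and log2 of the processed signal minus each array's 75th percentile was tested with limma 3.58.1 in R 4.3.3 (two-sided, by lmFit and eBayes), and p was adjusted by Benjamini and Hochberg over 25017 probes. A probe needed a signal well above background on at least 3 arrays and a value on at least 5. Sets were matched by the array's gene name, and the lists also by accession or synonym. For the tables as a whole, 32680 of 43603 probes had no symbol. Every probe of the set is named. A pathway list names the genes with an unadjusted p under 0.05, at most 6, otherwise the 2 of smallest p. Other genes are named as marked in the text or, among markers, to show what carries a sum. Genes and lists were chosen with earlier results of these data known. The fit was also run on data simulated with independent errors and no slide effect. That run checks only whether known folds are recovered on average, and not how slides that deviate together affect p.

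The labels number kidneys 1 to 3 in each group, but from different pigs. Correlations of same-numbered deviations were -0.348, -0.168 and -0.0499. Deviations are taken within each group and same-numbered kidneys never share a slide, so these values cannot show whether the numbers pair anything. No block is in the main fit, since the kidneys came from different pigs. Arrays of one slide deviated together (0.342, 0.102 and 0.334). Fitted with the slide as a block, 9.27% of probes had an unadjusted p under 0.05. The number of arrays limits the precision. Alternatives were median scaling, quantile normalization, normexp (offset 50) followed by quantile normalization, the deposited values, other filters, outlier spots kept, slide or number as a block, a variance trend and each array left out.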

Additional observations from a re-analysis of the deposited data

How the results depend on the processing

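With 3 kidneys a group, the 95% intervals of the receptor probes spanned from about 1 log2 for TLR2, TLR3 and TLR9 to over 2 log2 for the dimmest TLR4 probe, and TLR7, TLR8 and part of TLR4 lay at the background. None of the 14 probes had an unadjusted p under 0.05 in any alternative run, including those that left out 1 array (the deposited values hold 9 of them). The cause of the changes below was not tested. Probes passing the adjusted threshold over the whole array numbered 1 in the main fit, 11 with median scaling, 3 with the deposited values, normexp and quantile normalization, a variance trend or probes well above background on all 6 arrays, and 0 with no filter, quantile normalization alone or slide as a block. They were 0 to 1 when single arrays were left out. The 6 pathway probes at an unadjusted p under 0.05 became 15 with the deposited values and 13 with normexp and quantile normalization. They were 1 to 7 when single arrays were left out, with 1 without control 2. The numbers over all probes moved too. In the main fit 748 were higher and 826 lower of 25017. These were 2394 and 237 of 19245 in the deposited values and 947 and 692 of 25017 with normexp and quantile normalization. Without control 2 they were 365 and 435. The pathway counts are thus not changes of the pathway alone.

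With the kidney number as a replicate block, 0 probes passed the adjusted threshold and 2 pathway probes had an unadjusted p under 0.05. Over all probes, 535 higher and 675 lower ones did so with this block. This block could not move the median difference of the 14 probes from -0.17, since each number held 1 control and 1 ischemia array.

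Signs turned for NFKB1 (0.01 with median scaling, 0.09 in the deposited values), TLR2 (0.09, deposited), TLR3 A_72_P471206 (0.13 with median scaling, 0.27 deposited), TLR4 A_72_P419074 (0.06 with normexp and quantile normalization) and TLR9 (0.02, deposited). When single arrays were left out, the set's median ran from -0.25 to 0.07. TLR2 ran from -0.32 to -0.09 and TLR9 from -0.55 to -0.25. MYD88 ran from -0.07 to 0.29, NFKB1 from -0.26 to 0.02, TLR3 A_72_P303279 from -0.10 to 0.10 and A_72_P471206 from -0.16 to 0.07. TLR4 ran from -0.61 to 0.35 on A_72_P419074, from -0.52 to 0.07 on A_72_P444572 and from -0.71 to 0.00 on A_72_P444577. NFKBIA ran from -0.08 to 0.43, from 0.01 to 0.53 and from -0.06 to 0.49 on its probes A_72_P165846, A_72_P342398 and A_72_P600868.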
